A study of Mus musculus with 31 samples.

Results

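The 4 Hox clusters of the mouse hold 39 homeobox genes, and RNA from them was examined in embryonic stem (ES) cells with and without Srap1. A Hox cluster was taken as a fixed window on mouse build mm9, and its members were all RNA loci of the deposited tables with at least 1 base inside a window. The windows were chr6:52103000-52215000 for Hoxa (112 kb), chr11:96055000-96230000 for Hoxb (175 kb), chr15:102750000-102870000 for Hoxc (120 kb) and chr2:74490000-74610000 for Hoxd (120 kb). They held 32 of the 179682 loci listed in 5 RNA tables, 5 of them from wild-type cells (4 tables) and 27 from knockout cells (1 table). A locus here is a stretch of genome that the authors' assembly program, Cufflinks, joined from overlapping RNA fragments of 1 library. Its level is given in FPKM, a number of fragments scaled to transcript length and to library size, with a lower and an upper bound.

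The series compared wild-type ES cells with Srap1 KO ES cells that were derived together with them, both of 129SVxC57/BL6 background. Both genotypes were grown on gelatin with serum, leukemia inhibitory factor, the 2i pair of GSK3β and Mek 1/2 inhibitors and L-ascorbic acid, so no group lacked these agents. Srap1 carries a SRAP domain, and the title of the series links such a nuclease to the erasure of 5-methylcytosine that Tet enzymes have oxidized. Of 31 samples, 6 were used: 4 wild-type RNA libraries, 1 knockout RNA library and 1 control immunoprecipitation (DIP) of knockout DNA with IgG. Passages 3 to 5 are given for the DIP cells, and none for the RNA. The labels list 2 knockout RNA samples, but their tables were identical in every value, so they were counted as 1 sample. The knockout therefore has no replicate check, and no test between the genotypes was made. The labels name no separate cultures for the wild-type libraries, nor how many lines or clones stood behind either genotype. RNA came from bulk cultures, in which fewer expressing cells and less RNA per cell cannot be told apart. The tables pair no locus with a gene, so the Srap1 level, the ES cell markers and single Hox genes were not examined, and genotype and cell type rest on the labels.

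Hox genes encode homeodomain transcription factors that give cells along the head-to-tail axis and in the limbs their position. Within a cluster, genes are switched on in the order in which they lie, from the 3′ genes, which act in the hindbrain, to the 5′ genes, which act in the tail, the limb ends and the genital tubercle. In ES cells all 4 clusters are textbook targets of Polycomb complexes, which mark them with methylated histone H3 lysine 27 and keep them nearly silent, and their dense CpG islands are largely free of DNA methylation. Retinoic acid and the loss of pluripotency open them.

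The gene content of each cluster was read from a RefSeq gene table of build GRCm38.p6, which was used for order and names only. Positions of these genes were not matched to the windows on mm9. Hoxa holds 11 genes, with Hoxa13, a gene of the limb ends, at the high end of the coordinates, between Skap2 and Evx1. Hoxb holds 10 genes, with Hoxb13 at the low end of the coordinates and the hindbrain gene Hoxb1 at the high end, between Ttll6 and Skap1. Hoxc has 9 genes, Hoxc13 to Hoxc4, between Calcoco1 and Smug1. Hoxd has 9 genes, Hoxd13 to Hoxd1, between Evx2 and Mtx2. Evx1 and Evx2 are homeobox genes that lie at the 5′ ends of their clusters. The clusters also contain microRNA genes, Mir196b in Hoxa, Mir196a-1 and Mir10a in Hoxb, Mir196a-2 and Mir615 in Hoxc, and Mir10b in Hoxd.

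The mature microRNAs that clusters share are shown because they tie Hoxb to the other clusters by sequence. Capitals mark the seed, bases 2 to 8, by which a microRNA pairs with its targets, and the sequences are those of RefSeq (GRCm38.p6).
miR-10a-5p: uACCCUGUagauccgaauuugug
miR-10b-5p: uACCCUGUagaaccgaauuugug
miR-196a-5p: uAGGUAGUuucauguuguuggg
miR-196b-5p: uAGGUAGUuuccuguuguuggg
miR-10a from Hoxb and miR-10b from Hoxd have 1 seed in common. The same holds for miR-196a, made from both Hoxb and Hoxc, and miR-196b from Hoxa. Both families are known to target Hox messages. Levels of the mature forms were not analysed here.

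Promoters show the CpG content on which DNA modification could act in these clusters. The 250 bases before the start were matched for 22 of the 39 Hox genes in the RefSeq promoter table. Most of them belong to Hoxa and Hoxd. Hoxb is represented by Hoxb1, Hoxb4 and Hoxb8 and Hoxc by Hoxc4 alone, so the pooled values describe these clusters little. The 22 promoters held a median of 12 CpG sites, with quartiles of 7 and 19.5 and a range of 2 to 35. Their median GC content was 56.8%. Over all 27025 genes of that table the median was 6 CpG sites, with quartiles of 2 and 16, and the median GC content was 52%. The motif CG, which reads the same on both strands, occurred in 100% of the 22 Hox promoters and in 91.7% of all promoters of that length. The genes of the ninth group occur in all 4 clusters, and Hoxa9 and Hoxd9, regulators of trunk and limb patterning, show how far promoters of such relatives differ. Each CG is in capitals, and both are printed in the direction of transcription with GRCm38.p6 positions, which do not correspond to mm9 positions.
Hoxa9, chr6:52227371-52227620, minus strand: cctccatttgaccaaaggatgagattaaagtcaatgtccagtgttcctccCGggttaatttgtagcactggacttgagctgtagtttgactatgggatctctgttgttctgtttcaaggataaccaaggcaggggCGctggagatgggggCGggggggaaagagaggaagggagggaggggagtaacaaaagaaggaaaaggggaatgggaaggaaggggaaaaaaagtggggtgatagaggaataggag
Hoxd9, chr2:74697513-74697762, plus strand: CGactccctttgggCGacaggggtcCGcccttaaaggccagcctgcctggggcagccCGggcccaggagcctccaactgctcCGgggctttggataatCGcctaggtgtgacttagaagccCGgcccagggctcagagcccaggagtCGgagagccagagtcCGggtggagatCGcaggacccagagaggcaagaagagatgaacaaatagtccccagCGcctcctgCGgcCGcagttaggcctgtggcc
The Hoxa9 stretch holds 3 CG and has a GC content of 49.6%, and 70.4% of all promoters hold at least as many. The Hoxd9 stretch holds 13 CG at a GC content of 65.2%, and 31.8% of all promoters hold as many or more. Hoxb9 and Hoxc9 are named only.

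The read depth of the RNA libraries was not at hand and was approximated from the tables. Fragment numbers were implied from the distance between each FPKM and its bound, read as 2 SD of Poisson noise. They summed to about 895779, 916734, 912703 and 926460 over the loci of the wild-type tables and to about 10804700 for the knockout. The ratio of the knockout to a wild-type table was 11.7 to 12.1. The approximation fails at some loci, and whether libraries were pooled or assembled with other settings in 1 genotype is not known from the labels or headers. The wild-type tables listed 8882, 9218, 9295 and 9214 loci, and 143073 were listed for the knockout. The median locus had 16.0 to 16.8 FPKM in wild-type and 4.50 FPKM in knockout cells, so weaker loci were listed for the knockout.

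In wild-type cells the clusters were nearly without listed RNA. No wild-type table listed a locus in Hoxa, Hoxc or Hoxd. In Hoxb the 4 tables listed 1, 1, 2 and 1 loci, covering 467, 468, 1271 and 583 bases. Across the 527 kb of the 4 windows together, the covered share was 0.0886%, 0.0888%, 0.241% and 0.111%. The same tables covered 2.58% to 2.71% of the autosomes, counted over 10 kb bins with at least 1 IgG read of high mapping quality. In each table the clusters were covered less densely than the autosomes as a whole. Of 53 bins of 10 kb in the windows, 2, 2, 3 and 2 held a locus, against 4.97%, 5.09%, 5.13% and 5.18% of 235098 autosomal bins. As shares these were 3.77% in 3 tables and 5.66% in wild-type replicate 3, near the background in each table, so the count of bins does not set the clusters apart.

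A single Hoxb locus recurred in all 4 wild-type tables, about 55 kb into the window. It was listed at chr11:96109925-96110392 in wild-type replicate 1 with 65.3 FPKM (bounds 44.0 to 86.6). Replicate 2 gave chr11:96109925-96110393 with 58.4 FPKM (38.5 to 78.3). In replicate 3 it ran over chr11:96109908-96110541 with 43.3 FPKM (29.7 to 56.9), and in replicate 4 over chr11:96109925-96110508 with 38.9 FPKM (25.1 to 52.6). The mean of the 4 tables was 51.5 FPKM, above the median locus of each wild-type table, and the bounds of all 4 values overlap. The tables with the shorter locus (467 and 468 bases) gave the higher levels, and those with the wider locus (633 and 583 bases) the lower ones. The implied fragments were closer together, at 37.7, 34.4, 40.7 and 31.7.

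The knockout table listed no locus at this position. Its nearest locus began 2040 to 2189 bases further on, depending on the end given in the wild-type table. At the depth of the knockout library the wild-type levels correspond to 370 to 481 fragments, and 9563 knockout loci (6.68%) reached the wild-type mean of 51.5 FPKM. Of the 5 wild-type cluster loci, 4 had no overlapping knockout locus, which is 80%, against 5.51% of all 36609 wild-type loci. These 4 are 1 position seen in 4 libraries, not 4 separate places. With 1 knockout library, whether this position differs between genotypes or between this library and the others cannot be told apart. The IgG library held 5 to 7 reads over it, of which 2 had a mapping quality under 30, a value given to reads whose place in the genome is uncertain.

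Wild-type replicate 3 alone had another locus, at chr11:96125932-96126570, with 10.5 FPKM (bounds 3.72 to 17.3) and 9.59 implied fragments. It lies where the knockout table has its run of loci. Its best overlap with a knockout locus was 42.7% of the longer of the pair, so at a mutual overlap of 80% none of the 5 wild-type cluster loci was paired, and no fold change between genotypes could be given for any Hox locus.

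**Figure D1:**
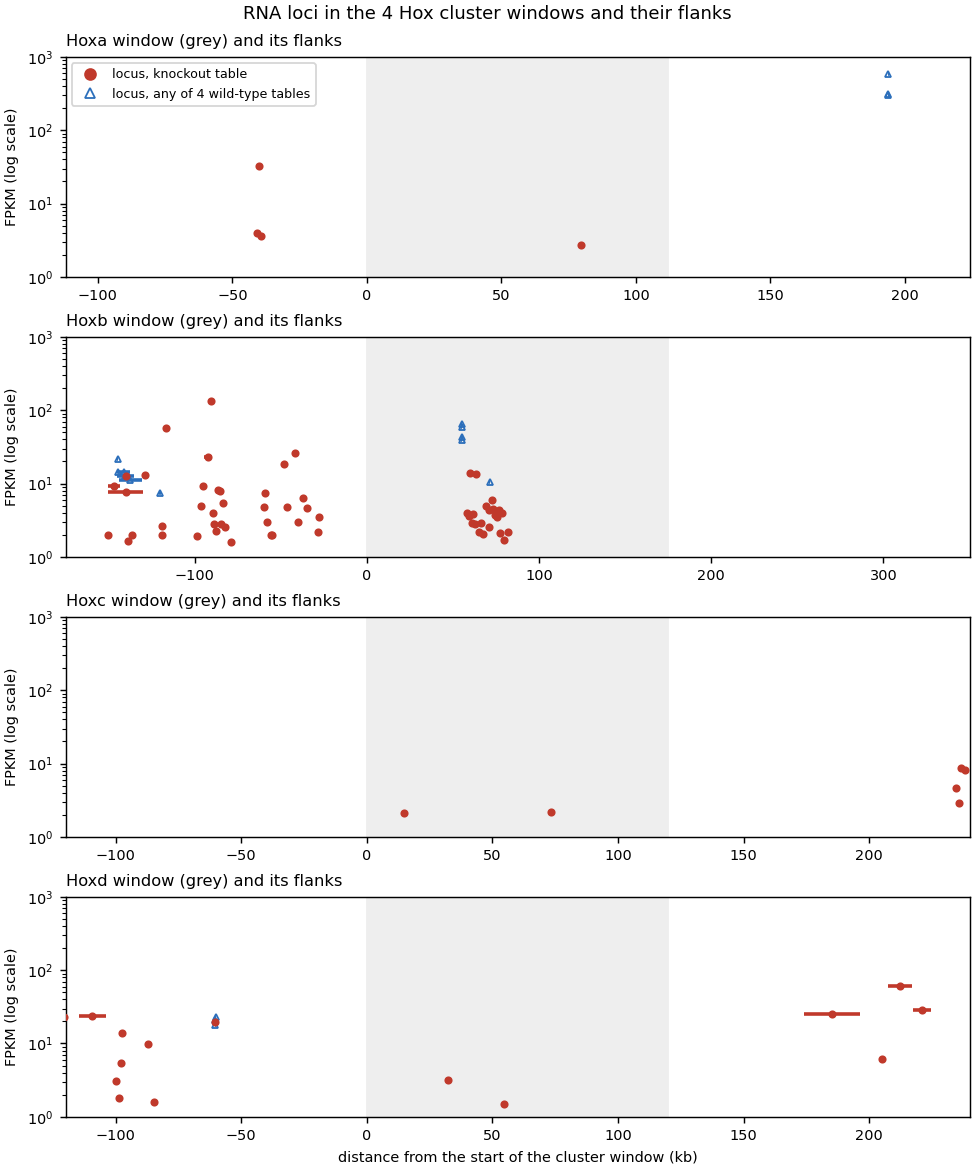
Level of each listed locus in FPKM (log scale) against its distance in kb from the start of the cluster window (grey), with a flank as wide as the window on each side; red points are knockout loci, blue triangles wild-type loci of any of 4 tables, and horizontal bars show the width of loci wider than the symbol. Wild-type loci inside a window occur in Hoxb alone, and the knockout loci of Hoxb crowd between 57.6 and 82.8 kb.

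In the knockout table, RNA loci were listed in all 4 clusters, but 22 of the 27 lay in Hoxb. Hoxa had 1 locus, Hoxc 2 and Hoxd 2. These loci were weak. Their median was 3.13 FPKM (range 1.51 to 13.9), and 22 of 27 were below the median of the whole table, 4.50 FPKM (quartiles 2.58 and 11.2). The interval of the median of the 27 from order statistics was 2.2 to 3.99. It treats neighbouring loci of 1 library as separate and does not measure spread between libraries. The 27 loci rested on a median of 26.3 implied fragments (11 to 254), above the median of all knockout loci at 18.9. They were wider, with a median of 789 bases against 486. All 27 had a lower bound above 0.

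Hoxa, whose 5′ genes act in the limbs and the genital tract, had its only knockout locus at chr6:52182184-52182662. It was 478 bases wide and had 2.73 FPKM (bounds 1.41 to 4.06). This covers 0.427% of the window, beside 0.994% and 0% of the flanks before and after it. Hoxa was thus the cluster with the fewest covered bases in the knockout table.

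Hoxc, whose genes act mainly in the trunk and in skin and hair, had loci at chr15:102764470-102764906 with 2.09 FPKM (0.83 to 3.35) and chr15:102822993-102823443 with 2.15 FPKM (0.904 to 3.4). They cover 0.738% of the window, and their bounds overlap almost entirely. The flank before had no locus, and the flank after was covered to 2.61% by 4 loci.

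Hoxd, known for its part in the digits and the genital tubercle, had loci at chr2:74521967-74522382 with 3.13 FPKM (1.5 to 4.76) and chr2:74544149-74545278 with 1.51 FPKM (0.795 to 2.22). The latter had the lowest level of the 27, although it was 1129 bases wide. Their bounds overlap. They cover 1.29% of the window, which lies between flanks covered to 11.9% and 33.1%.

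The 22 loci of Hoxb formed 1 run, chr11:96112581-96137773, that fills 82.9% of 25.2 kb. The remaining 57.6 kb before it and 92.2 kb after it, within the window, had no knockout locus at all. The run consists of 21 separate stretches with gaps of 51 to 899 bases, 119.5 at the median. It holds 87.8% of all bases that knockout loci cover in the 4 clusters. Where the Hox genes lie in this run was not analysed, since positions on mm9 could not be matched to genes.

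Most levels within the run were low. The 20 loci of at least 300 bases ranged from 1.72 to 5.96 FPKM, and the median of all 22 was 3.62 FPKM. The highest of the 20 was chr11:96127142-96127664, 522 bases wide, with 5.96 FPKM (bounds 4.13 to 7.79). Next came chr11:96122678-96125230 with 4.88 FPKM (4.26 to 5.49), the widest of all at 2552 bases and the best measured, with 254 implied fragments. It was followed by chr11:96127787-96129012 with 4.53 FPKM (3.64 to 5.42). These 3 lie in the middle of the run, and their bounds overlap one another.

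The 2 loci at the high end of the coordinates were lower than the 3 middle loci. The last, chr11:96135899-96137773, was the second widest at 1874 bases and had 2.18 FPKM (1.69 to 2.66), and the locus before it had 1.72 FPKM (1.04 to 2.39). Their upper bounds lie below the lower bounds of the 3 middle loci. The 3 were named for their high levels, and the last but 1 was added after its value was seen. The separated bounds are therefore no test of a difference along the run. At the low end the first locus, 1348 bases wide, had 3.90 FPKM (3.12 to 4.69). Besides these and the 2 pairs described next, the run held 12 loci of 378 to 1826 bases, with 2.03 to 4.29 FPKM. The lowest of the 12, chr11:96121767-96122556, lies directly before the widest locus and had a lower level than the last locus of the run. A lower level at the high end than elsewhere in the run was thus not shown.

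A pair of short loci stood above the others, at 272 bases with 13.9 FPKM (8.21 to 19.7) and 214 bases with 13.7 FPKM (5.43 to 21.9). They had only 23.7 and 11 implied fragments, so their bounds are wide. Another pair of loci had the same ends, chr11:96125281-96126774, and levels of 2.54 and 4.38 FPKM. The table gives no strand, so whether they are antisense to each other was not examined. They were the only 2 of the 27 knockout loci that overlap a wild-type locus, the second locus of wild-type replicate 3.

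**Figure D2:**
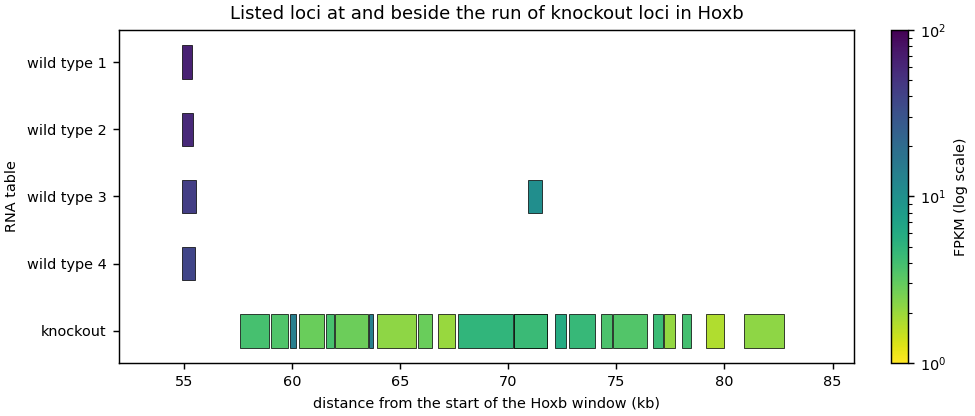
Loci listed in each of the 4 wild-type tables and the knockout table (rows) by distance in kb from the start of the Hoxb window, coloured by FPKM (log scale). The recurrent wild-type locus ends about 2 kb before the first knockout locus, and wild-type replicate 3 alone has a locus within the run.

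Of the 27 knockout loci, 25 overlapped no locus of any wild-type table, a share of 92.6% (exact 95% interval 75.7% to 99.1%, which covers counting error only and treats neighbouring loci as separate). The background over all 143073 knockout loci was 67.4%. Most of the 57 knockout loci in the flanks overlapped no wild-type locus either, so this was not particular to the clusters. Only 2 of the 27 (7.41%) reached 6.99 FPKM, the level above which 95% of wild-type loci lie, and both were the short ones of the Hoxb run. Of all knockout loci, 36.1% reached it. The cluster loci therefore lay mostly at levels that the wild-type tables seldom list.

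Scaled to the depth of a wild-type table, the 27 loci would have had a median of 2.18 to 2.26 fragments, from 0.912 to 0.943 at the lowest to 21.1 to 21.8 at the highest. The fifth percentile of fragments at listed wild-type loci was 8.90, 8.71, 8.93 and 8 in the 4 tables. At that scaling 2, 3, 2 and 5 of the 27 reached it. Most of the 27 thus fell below what 95% of listed wild-type loci had, a percentile of listed loci and not a limit of detection. The part of depth in their missing from the wild-type tables was not tested. The 2 loci with the most fragments were above that percentile in each table, and neither overlapped a wild-type locus. They were the widest, with 21.1 to 21.8 scaled fragments, and chr11:96129844-96131423, with 9.21 fragments when scaled to wild-type replicate 3 and a level of 3.49 FPKM (2.82 to 4.16). Whether either differs between the genotypes was not tested.

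In the knockout table the clusters held about as many loci per 100 kb as their surroundings, and these covered fewer bases than in flanks of the same width. Clusters held 5.12 loci per 100 kb, the flanks 5.41 and the autosomes 5.92. Both of the first 2 values rest mostly on 1 place. Of the 27 cluster loci 22 lay in Hoxb, and of the 57 flank loci 37 lay in the flank before Hoxb. Covered bases amounted to 23792, or 4.51%, of the clusters, 105611, or 10.0%, of the flanks and 10.9% of the autosomal bins with reads. They count the whole span of each locus, of which the sequenced RNA may be only a part. A flank locus at chr2:74663927-74686404 alone counts 22477 bases on 41.3 implied fragments. How much of each span was in the RNA was not examined, so the covered share does not measure the amount of RNA. Of the 53 bins of 10 kb, 8 (15.1%) held a knockout locus, against 19.9% of all autosomal bins, which is near the background. The order of covered shares depends on the flanks chosen. With flanks of 0.5 times the width it turned, 3.91% of the flanks being covered against 4.51% of the clusters, and with flanks of 2 times the width the flanks reached 15.2%. Most of the cluster share came from Hoxb: without the Hoxb run, 5 loci and a covered share of 0.58% would remain, below all 3 flank values.

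Between the individual clusters and flanks the pattern was uneven. Hoxb was covered to 11.9%, less than the flank before it (27.0%) and more than the flank after it, in which no table listed a locus. Hoxa lay below the flank before it and above the empty flank after it, Hoxc the other way round, and Hoxd below both. Loci in the flanks were stronger as a group, with a median of 5.00 FPKM (1.59 to 136). Their mean FPKM weighted by locus width, in which the widest spans count most, was 18.5, against 3.42 in the clusters. In the flanks 24 of 57 knockout loci (42.1%) reached 6.99 FPKM, 15 of them at least 300 bases wide, and within 0.5 times the width 7 of 24 did. None of the 25 cluster loci of at least 300 bases reached it.

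**Figure D3:**
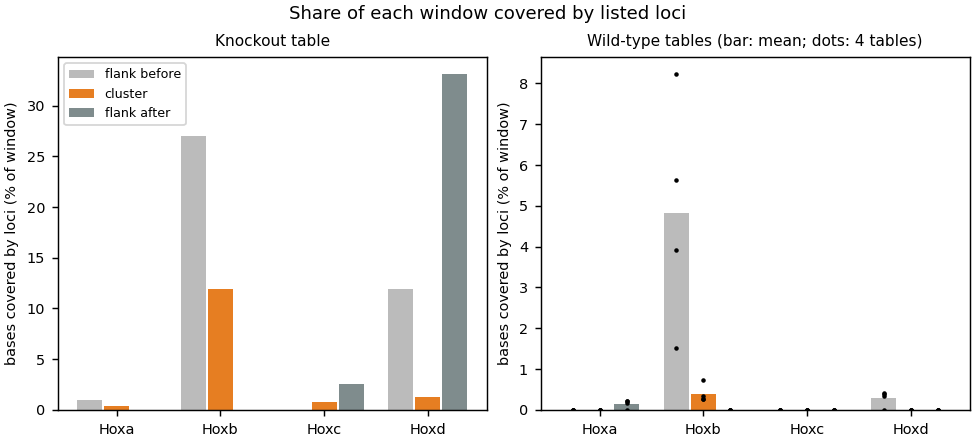
Share of each window covered by listed loci, in percent, for the knockout table (left) and the 4 wild-type tables (right, bars are means and dots single tables; the vertical scales differ), with the flank before, the cluster and the flank after. The knockout table covered 11.9% of Hoxb and 0.427% to 1.29% of the other clusters, and wild-type tables covered part of no cluster but Hoxb.

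Some flank loci overlapped between the genotypes. Before Hoxd, a locus recurred in 3 wild-type tables with 17.8, 22.9 and 21.0 FPKM, and the knockout table listed it at chr2:74429376-74429965 with 19.7 FPKM (bounds 16.7 to 22.7). The knockout value lay inside the wild-type range, and the loci overlapped by 71.3% to 83.4%, so that 1 of the 3 wild-type loci met the mutual overlap of 80%. Before Hoxb, the 4 wild-type tables listed loci of 11.1 to 22 FPKM that overlapped knockout loci of 9.23 and 7.64 FPKM. Some of them also overlapped shorter knockout loci of 12.8, 1.62 and 1.97 FPKM. The best of these overlaps was 0.673 of the longer locus, between wild-type replicate 4 at chr11:95910858-95924514 with 11.1 FPKM (bounds 7.03 to 15.1) and the knockout at chr11:95904899-95925188 with 7.64 FPKM (7.07 to 8.21). Wild-type replicate 1 did not list the recurrent locus before Hoxd, and the others had 10.0 to 13 implied fragments there. After Hoxa, a short locus was listed with 588, 316 and 304 FPKM in wild-type replicates 1, 3 and 4, in replicate 1 at chr6:52296684-52296887. Neither replicate 2 nor the knockout table listed it. It was 203 to 239 bases wide, had 42.6 to 48.6 fragments, and both IgG reads over it had a mapping quality under 30. Like the recurrent Hoxb locus, it was absent from the deeper table.

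The IgG DIP library measured how many reads the cluster DNA yields without a specific antibody, and only that of the knockout was used. Reads with a mapping quality of at least 30 numbered 493 in Hoxa, 818 in Hoxb, 568 in Hoxc and 456 in Hoxd. As densities these are 4.40 reads per kb (95% Poisson interval 4.02 to 4.81) in Hoxa, 4.67 (4.36 to 5.01) in Hoxb, 4.73 (4.35 to 5.14) in Hoxc and 3.8 (3.46 to 4.17) in Hoxd. The intervals cover counting error only, and amplified reads are not independent molecules. The intervals of Hoxa, Hoxb and Hoxc overlapped, and that of Hoxd lay below those of Hoxb and Hoxc. The median autosomal bin of 10 kb had 30 reads (quartiles 18 and 41), whereas the 53 bins of the clusters had a median of 43 (38 and 50).

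The mean density of each cluster lay in the upper part of the range of single autosomal bins of 10 kb, without standing outside it. Single bins scatter more than a mean over a window of 112 to 175 kb. Autosomal windows of such width were not compared, so the shares do not show how usual such a mean is. The share of autosomal bins with at least the density of the cluster was 17.4% for Hoxa, 13.5% for Hoxb, 11.8% for Hoxc and 32.9% for Hoxd. The lowest bin was at 30 reads in Hoxa, 29 in Hoxb, 32 in Hoxc and 34 in Hoxd, and the highest at 69, 59, 70 and 43. The chromosomes themselves differed, with medians per bin of 28 on chromosome 6, 37 on chromosome 11, 29 on chromosome 15 and 31 on chromosome 2.

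Against their own flanks, Hoxd and Hoxa had more IgG reads. The ratio of cluster to flank density was 1.32 (95% interval 1.17 to 1.48) for Hoxd, with flanks at 2.83 and 2.94 reads per kb, and 1.17 (1.05 to 1.31) for Hoxa, with flanks at 3.95 and 3.57. For Hoxb it was 1.08 (0.988 to 1.17) and for Hoxc 1.05 (0.945 to 1.16), both intervals including 1. When reads of every mapping quality were counted, Hoxa fell to 1.07 (0.954 to 1.19), which includes 1, and Hoxd to 1.20 (1.07 to 1.35). The density of all clusters together was 4.43 reads per kb (4.25 to 4.61) and that of the flanks 3.93 (3.81 to 4.05).

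Reads of uncertain place were fewer in the 4 clusters as a whole. Of all IgG reads, 2.75% (exact 95% interval 2.13% to 3.48%) had a mapping quality under 30 in the clusters, 7.94% (7.17% to 8.77%) in the flanks and 19.8% on the autosomes. By cluster the share was 1.00% (0.327% to 2.33%) in Hoxa, 5.32% (3.92% to 7.04%) in Hoxb, 1.39% (0.601% to 2.72%) in Hoxc and 1.51% (0.610% to 3.09%) in Hoxd. Hoxb had the highest share, and its interval did not meet those of the others. The flanks before and after had 5.56% and 14.3% for Hoxa, 12.6% and 5.36% for Hoxb, 3.48% and 1.68% for Hoxc, and 11.5% and 9.02% for Hoxd. The interval of the cluster lay below those of both flanks in Hoxa and Hoxd, while Hoxb overlapped its flank after and Hoxc overlapped both. In Hoxa and Hoxd the cluster had a higher density and a lower share of low quality than both flanks. In Hoxb the flank before had 12.6% at 4.65 reads per kb, beside 5.32% at 4.67 in the cluster. Its flank after had 5.36% at 4.03 reads per kb, so share and density did not move together there. The part of mapping quality in the density ratios was tested only by counting reads of every quality, as given.

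In the Hoxb run the IgG density was 5.48 reads per kb (4.60 to 6.47, 138 reads), and in the rest of the window it was 4.54 (4.20 to 4.89, 680 reads). The intervals overlap. No wild-type counterpart of this library was analysed here, so no density was compared between genotypes.

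**Figure D4:**
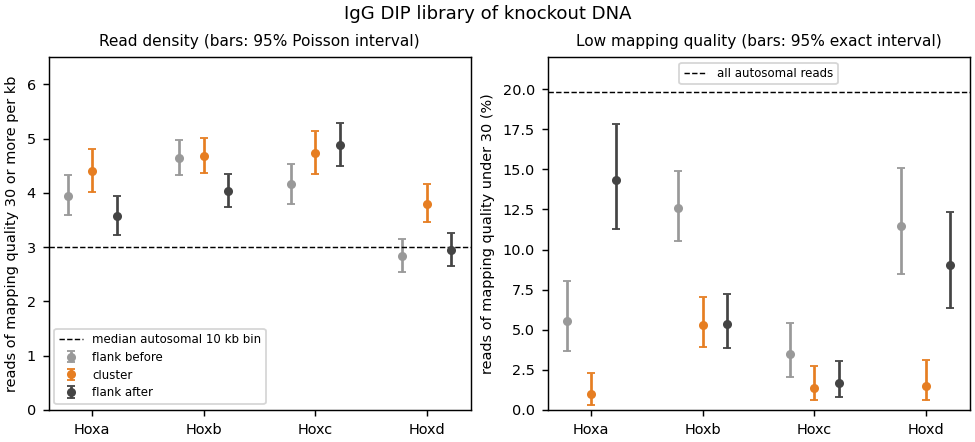
IgG DIP reads of knockout DNA in each cluster and its flanks: reads of mapping quality 30 or more per kb with 95% Poisson intervals (left) and the percent of reads with mapping quality under 30 with exact 95% intervals (right); dashed lines mark the median autosomal 10 kb bin (left) and all autosomal reads (right). In density the interval of Hoxd lies above those of both its flanks, and in the share of low quality the intervals of Hoxa and Hoxd lie below those of both flanks.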

How the data were processed

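RNA tables of 4 wild-type libraries and 1 Srap1 KO library and 1 IgG DIP library were used; the KO tables, identical to each other, were counted as 1 sample. FPKM with lower and upper bounds are the authors' Cufflinks values per the file headers, scaled within each library. Cufflinks 2.2.1.0, Bowtie 0.12.8, Trim Galore 0.3.5, Bismark 0.14.5 and MACS2 2.1.1 stand in the submitters' processing notes, with mm9 for RNA; settings are not given in the sources used here. The score in the deposited IgG DIP file is a mapping quality per read, and its positions run to the ends of mm9 chromosomes.

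Windows, flanks of the same width and lists were chosen with earlier results of these data known. Covered bases are the union of whole locus spans, clipped to a window. Loci were paired at a mutual overlap of at least 80%. Implied fragments read the distance from FPKM to its upper bound as 2 SD of Poisson noise, which fails at some loci. IgG reads were counted by start at a mapping quality of at least 30. Poisson and exact binomial intervals are at 95%. Autosomal 10 kb bins with at least 1 such read were the background. Positions of RNA loci are printed as the tables give them.

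Loci named are every wild-type cluster locus and, per cluster, the 3 knockout loci of at least 300 bases with the highest FPKM and the 2 widest; the pair of short loci, the pair with the same ends, the first and the last but 1 locus of the Hoxb run, the locus with the second most fragments and the flank loci were added after their values were seen. Overlap and interval code was tested on simulated data. Alternatives changed locus filters, flank width, overlap and read filters. A second control, IgG ChIP windows, was not used, since its build is not given. Python 3.11.15, numpy 2.4.6, pandas 2.3.3 and scipy 1.17.1 were used.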

Additional observations from a re-analysis of the deposited data

Results flagged for a closer look

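In groups of 4 wild-type tables, 9 counts and covered lengths were examined for a table that stands apart from the other 3, and 6 were flagged; chance flags about 1 in 20 groups, and counts this small are mostly ties. In Hoxb wild-type replicate 3 listed 2 loci and covered 1271 bases, where the others listed 1 locus and covered 467 to 583 bases. The difference is its locus at chr11:96125932-96126570 with 10.5 FPKM, which rests on 9.59 implied fragments. In the flank after Hoxa wild-type replicate 2 listed 0 loci and covered 0 bases, where the others listed 1 locus each. In the flank before Hoxd wild-type replicate 1 listed 0 loci and covered 0 bases, where the others listed 1 locus each, with 10.0 to 13 implied fragments.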

How the results depend on the processing

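Of 54 alternatives, 42 kept the value within the stated spread, 12 moved it and 0 changed its sign, but 1 turned a comparison. Keeping only knockout loci at or above 6.99 FPKM, the fifth percentile of wild-type levels, left 2 cluster loci, a covered share of 0.0922% in the clusters and 7.67% in the flanks, and 100% of loci without a wild-type counterpart. Keeping loci of at least 300 bases gave 4.42% and 9.85%. Flanks of 0.5 times the width were covered to 3.91%, less than the 4.51% of the clusters, so the order of clusters and flanks turned. Flanks of 2 times the width were covered to 15.2% and gave an IgG ratio of 1.16 for Hoxd. Without the Hoxb run, an alternative chosen after seeing the data, 5 loci and 0.58% remained. Leaving out each wild-type table in turn gave 92.6% to 100% of knockout cluster loci without a wild-type locus, 100% without wild-type replicate 3. With wild-type regions widened by 1 kb the share fell to 85.2%. At overlaps of 50%, 80% and 90%, 0 of 5 wild-type cluster loci were paired, so the planned pseudocount, low-level filter and scaling at paired loci were not run. The knockout tables are 1 sample, so no test between the genotypes was made. Of the listed wild-type loci, 95% had at least 8 to 8.93 implied fragments, and 22 to 25 of the 27 knockout cluster loci fell below this at wild-type depth.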

Other observations

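Beyond Hoxd, in the flank after it, the knockout table listed 3 wide loci at higher levels than any knockout locus of the 4 clusters. They were chr2:74663927-74686404 with 24.9 FPKM (bounds 17.2 to 32.7), chr2:74697456-74706997 with 60.4 FPKM (49.6 to 71.2) and chr2:74707358-74714794 with 28.6 FPKM (25.2 to 32.0). None of the 4 wild-type tables listed a locus in that flank. Of all 143073 knockout loci 67.4% overlapped no wild-type locus, so this was not particular to the flank. Before Hoxd, knockout loci at chr2:74368477-74370033 and chr2:74375348-74386068 also exceeded every knockout cluster locus in level and overlapped no wild-type locus. The one at chr2:74429376-74429965 exceeded them too and did overlap wild-type loci. At the depth of wild-type replicate 3 the 3 loci after Hoxd would have had 3.49, 10.6 and 23.6 fragments, and the fifth percentile of its listed loci was 8.93. With 1 knockout library, a difference between the genotypes in the flank after Hoxd was not tested. The flank after Hoxb, 175 kb wide, was listed with 0 loci in all 5 tables.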
